A study of Mus musculus with 2 samples.

Results

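The chromatin sites described here are regions of the gastrocnemius, the large calf muscle, that were open to the enzyme DNase I and whose midpoint lay in protein-coding sequence. A peak was a member if its midpoint lay in a coding exon of GENCODE M21 on mouse build mm10, over 2 kb from every annotated transcript start, and if it overlapped a peak of the other library by 1 base or more. The rule took 783 of 82498 peaks of replicate 1 and 785 of 88198 peaks of replicate 2, from the stricter of the 2 peak lists deposited for each library. Merged over the libraries, the members formed 820 sites in 752 genes, all of them protein-coding.

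DNase-seq was done on 2 libraries of a single group, male B6CASTF1/J mice aged 14 days. B6CASTF1/J is the first-generation hybrid of C57BL/6J and the wild-derived strain CAST/EiJ. Both libraries were labelled biological replicates and named the same donor entry. The labels add 3x Males, whose meaning is not explained. The number of animals behind a library is therefore not known, and the spread between libraries may be partly technical. There was no untreated or other condition, and 2 libraries cannot give a two-sided p below 0.5 by an exact sign flip. Differences are therefore stated library by library, replicate 1 before replicate 2, or as mean ± SD (n = 2), with no p-value. Members had to overlap a peak of the other library, so both libraries were scored on nearly the same sites. The SD of a density, share or GC content is therefore small by the rule and no independent sign of agreement.

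DNase I cuts DNA that is not tightly wrapped around nucleosomes, and a footprint is a short protected stretch inside an open region, often one where a protein is bound. Most regulatory DNA outside promoters lies in introns and between genes. Coding exons are under a separate constraint, because the same bases also specify amino acids. Transcription factors are nonetheless known to bind within coding exons, and CTCF, a zinc finger protein that organises chromatin loops, is among the factors with a long recognition sequence that can be recognised there. Such an intragenic site can serve the host gene, a neighbouring gene, or an unannotated start of transcription.

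The tissue label was checked at promoters, within 1 kb of a start. Of 14 skeletal muscle markers, 12 had a promoter peak in both libraries and Myh4 had none in either. None of 4 hepatocyte markers had one. Promoter peaks in both libraries were found for 1 of 4 heart, 1 of 4 leukocyte, 2 of 3 endothelial, 3 of 3 fibroblast, 1 of 3 neuronal and 2 of 3 Schwann cell markers. Of all protein-coding genes with coding bases over 2 kb from every start, 70.0% had such a peak. An open promoter alone is therefore a weak sign of a cell type. The tissue is a mixture of cells, in which a site open in few cells and a site weakly open in many cannot be told apart. The part of these other cell types in any site below was not tested.

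The 5 sequences that follow were chosen because they are among the strongest sites or lie in a sarcomere gene, and because they show the recognition sequences counted later. They are given 5′ to 3′ on the strand of the host gene, from the mm10 reference, and may differ on CAST chromosomes. Capitals mark bases that lay in a footprint in both libraries.
Spi1: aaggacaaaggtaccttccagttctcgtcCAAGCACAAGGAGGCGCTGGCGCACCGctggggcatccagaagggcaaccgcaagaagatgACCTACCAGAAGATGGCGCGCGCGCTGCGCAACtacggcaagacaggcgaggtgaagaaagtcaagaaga
Synpo2l: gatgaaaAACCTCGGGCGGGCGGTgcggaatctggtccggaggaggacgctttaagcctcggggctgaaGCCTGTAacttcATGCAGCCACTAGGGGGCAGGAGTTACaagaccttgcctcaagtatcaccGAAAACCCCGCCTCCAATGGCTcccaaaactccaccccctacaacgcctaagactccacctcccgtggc
Rsad1: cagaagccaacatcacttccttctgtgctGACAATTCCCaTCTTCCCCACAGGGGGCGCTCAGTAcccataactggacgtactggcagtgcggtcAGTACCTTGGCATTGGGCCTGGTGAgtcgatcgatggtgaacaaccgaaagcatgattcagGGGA
Numa1: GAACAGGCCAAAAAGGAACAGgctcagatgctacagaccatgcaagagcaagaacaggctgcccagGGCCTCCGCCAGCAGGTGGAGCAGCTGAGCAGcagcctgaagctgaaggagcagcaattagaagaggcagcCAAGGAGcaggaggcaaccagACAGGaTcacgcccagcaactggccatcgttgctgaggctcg
Nrap: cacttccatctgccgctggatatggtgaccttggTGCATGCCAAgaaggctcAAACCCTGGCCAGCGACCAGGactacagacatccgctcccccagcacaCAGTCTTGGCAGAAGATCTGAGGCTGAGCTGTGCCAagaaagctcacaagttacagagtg

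The first of these, at chr2:91115161-91115320, lay wholly in the last coding exon of Spi1, which encodes PU.1, an ETS family transcription factor of myeloid and B cells. It had the highest mean signal percentile of all 820 sites. Its signal, the authors' own value for the strength of DNase cutting at a peak, was 7.46 and 9.63, above 92.8% and 99.7% of all peaks of the library. The CTCF core consensus, taken here as CCA, any 2 bases, AG, any 2 bases and GGC, occurred in it as CCAGAAGATGGC, at bases 96 to 107 of the printed sequence, and all 12 bases lay in footprints of both libraries. The Spi1 promoter had a peak of 1.18 in replicate 1 and none in replicate 2, and of the 4 leukocyte markers 3 lacked a promoter peak in both libraries. The coding-exon site was thus several times stronger than the promoter of its own gene.

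The Synpo2l site, at chr14:20661061-20661260 on the reverse strand, lay in the last of 4 coding exons. Synpo2l encodes an actin-binding protein of the sarcomere. Its signal was 8.31 and 6.29, against 4.59 and 1.17 at the promoter of the gene. It held the CTCF core as CCACTAGGGGGC at bases 88 to 99, and 2 overlapping copies of the Sp/KLF box GGGCGG between bases 14 and 23. All of these bases lay in footprints of both libraries.

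The Rsad1 site, at chr11:94544061-94544220, covered the whole of coding exon 5 of 9, only 64 bases long, and the introns on both sides. Its signal was 5.99 and 7.53, and the promoter of the gene had 6.37 and 6.72. The full CTCF core was not found in it. A shorter form, AGNNGGCG, was searched after the sequences had been seen, and occurred as AGGGGGCG at bases 51 to 58, in footprints of both libraries. The sequence TTGGCA, one arm of the paired site of the NFI transcription factor family, stood in a further footprint at bases 102 to 107.

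The Numa1 site, at chr7:101998621-101998820, lay within an inner coding exon of 3360 bases. Numa1 encodes a protein of the mitotic spindle poles. Its signal was 5.74 and 4.67, and the E-box CAGCTG, a form of the sequence bound by MyoD and other myogenic factors, lay in a shared footprint at bases 88 to 93. The Nrap site, at chr19:56342141-56342300 on the reverse strand, was weaker, with 3.45 and 1.79. Nrap encodes a scaffold protein of myofibril assembly. Its 2 fully footprinted NFI arms were TTGGCA at bases 106 to 111 and the reverse complement TGCCAA at bases 39 to 44.

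Coding sequence held more open sites per base than any other class of sequence. Coding exons over 2 kb from every start made up 21.1 Mb, which is 0.897% of all bases at that distance, and they held 2.14% and 2.15% of the shared peaks found there. There were 37.1 and 37.2 members per Mb of coding exon. Noncoding parts of exons, such as UTRs and noncoding RNAs, had 28.0 and 27.5 shared peaks per Mb, introns 18.8 and 18.7, and intergenic sequence 12.5 and 12.4. Assembly gaps were left out of the bases counted, but sequence in which reads cannot be placed uniquely was not. Its part in these densities was not tested. The density in coding exons was 1.98 ± 0.00507 times that in introns (SD, n = 2). This SD is small by the rule, since only peaks shared by the libraries were counted.

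Before the second library was considered, 1241 and 1069 peaks had their midpoint in distal coding exons. Of these, 63.1% and 73.4% overlapped a peak of the other library, beside 79.2% and 73.9% of all peaks and 75.5% and 68.5% of intron peaks. The 458 coding-exon peaks seen only in replicate 1 had a median GC content of 60%, and the 284 seen only in replicate 2 had 54.7%. Intron peaks differed between libraries in the same direction, with 54.9% and 48.8%. Each library on its own therefore gave another count of coding-exon peaks, and the excess over introns was larger in replicate 1 alone, at 2.37 times, than in replicate 2 alone, at 1.85 times.

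**Figure D1:**
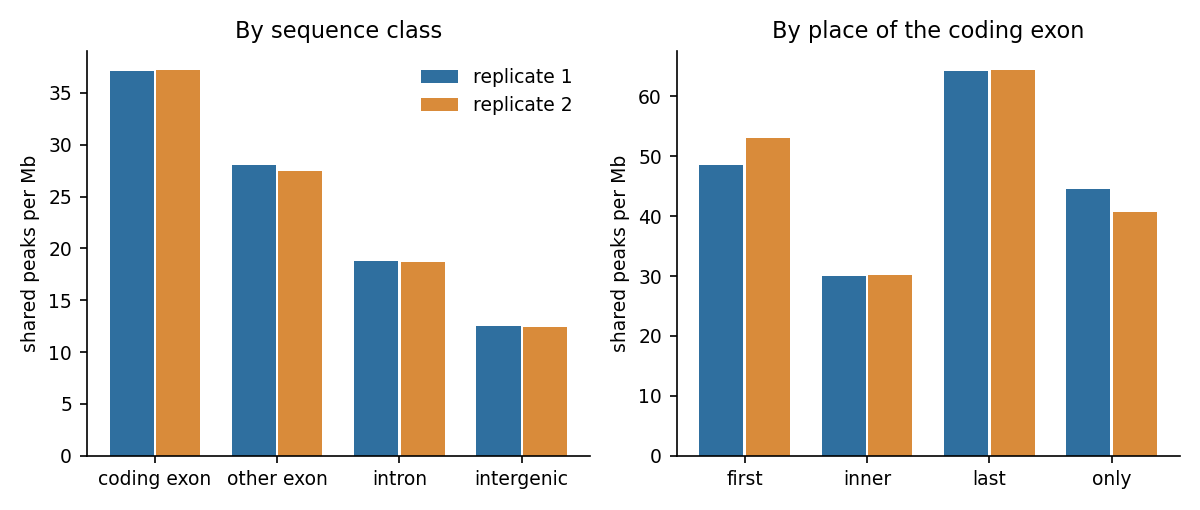
Shared peaks per megabase over 2 kb from every start, for each library, by class of sequence (left) and by the place of the coding exon in the transcript (right). Coding exons stand at 37.1 and 37.2 per Mb against 18.8 and 18.7 in introns, and last coding exons at 64.2 and 64.4 against 30 and 30.1 in inner ones.

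The sites were of ordinary strength and width. Member peaks had a median signal of 1.34 and 0.849, with interquartile ranges of 0.864 to 2.21 and 0.564 to 1.43, and the strongest reached 9.15 and 9.63. Their median percentile among all peaks of the library was 52.4 and 50.7. Intron peaks had 49.4 and 52.4, so the members stood 3.01 points higher in replicate 1 and 1.70 points lower in replicate 2. The difference had opposite signs in the libraries and was smaller than its spread, at 0.654 ± 3.33 points. Only 14 and 29 member peaks reached the top 10% of their library, which is 1.79% and 3.69% of members, and the shares of intron peaks were 1.63% and 3.51%. The median width was 180 bases in both libraries, the same as in introns, and the widest member peaks spanned 808 and 800 bases.

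The order of the sites was similar in the libraries. The ratio of replicate 1 to replicate 2 had a median of 1.56 over the 820 sites, beside 1.55 over all shared peaks, and 89.4% of the sites lay within 2-fold of that common ratio. Among intron sites the share was 82.9%. Of the exceptions, 28 sites were relatively stronger in replicate 1 and 59 in replicate 2. The Spearman correlation of the signals across the 820 sites was 0.780, and 0.682 across 17534 intron sites. These are descriptions across sites of the same 2 libraries. Spi1 and Rsad1 were relatively stronger in replicate 2, at 0.501 and 0.515 of the common ratio.

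**Figure D2:**
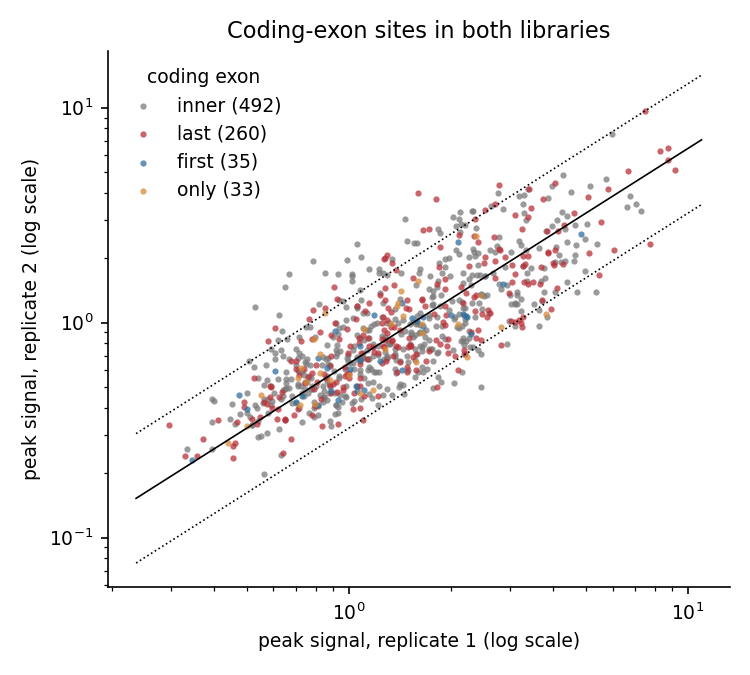
Peak signal of the 820 coding-exon sites in replicate 1 and replicate 2, both on log scales, coloured by the place of the coding exon. The solid line is the median ratio of all shared peaks, 1.55, and the dotted lines are 2-fold to either side. Of all sites, 89.4% lie between the dotted lines.

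The 10 strongest sites by mean percentile were in Spi1, Synpo, Synpo2l, Fbxl22, Zfp771, Rsad1, Nrg2, Numa1, Def6 and Ppp1r18. Of these, 7 lay in a last coding exon and 3, in Rsad1, Numa1 and Def6, in an inner one. Fbxl22 encodes an F-box protein of the sarcomere, and its site had signals of 8.75 and 5.71 although the promoter of the gene had only 1.28 and 1.24. Synpo, the actin-associated protein synaptopodin and a relative of Synpo2l, had 8.73 and 6.49. Zfp771, a zinc finger gene, had the highest signal of all in replicate 1, 9.15, and 5.11 in replicate 2. Nrg2, a ligand of ErbB receptors, had 6.66 and 5.09. Def6, which encodes a guanine nucleotide exchange factor, had 6.77 and 3.89, and Ppp1r18, a subunit that targets protein phosphatase, had 5.81 and 4.20. In 7 of the 10 the CpG ratio, the number of CpG pairs over that expected from the base composition, was over 0.6, as is typical of CpG islands. Among all 820 sites 24.0% had such a ratio. Their median percentile was 54.4 and 56.1, against 52.0 and 49.7 in the other sites.

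Sites at the weak end included those of Plec, the cytoskeletal linker plectin. The 4 sites in its last coding exon of 6213 bases had signals of 0.357 to 0.641 in replicate 1 and 0.234 to 0.266 in replicate 2, all below the 16th percentile of replicate 1 and the 2nd of replicate 2.

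Base composition set the coding-exon sites apart from intron sites. Their median GC content was 58.6% and 58.1%, against 53.3% and 52.8% in intron peaks, a difference of 5.27 ± 0.0186 points. With all peaks of a single library, shared or not, the difference was 5.48 points in replicate 1 and 5.83 in replicate 2. The median CpG ratio was 0.411 and 0.415, against 0.222 in both libraries for introns. A ratio over 0.6 was found in 26.2% and 25.9% of member peaks, in 4.19% and 4.30% of intron peaks and in 8.53% and 7.88% of intergenic peaks.

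The composition also differed within coding sequence. Eligible coding exons of the representative transcripts were cut into 74879 windows of 150 bases, with a median GC content of 51.3%. Windows of the same size around the sites had 58.7%. The 74879 windows did not cover all eligible coding bases, and the median eligible inner exon, of 125 bases, was shorter than a window. A site midpoint lay in 513 of them, or 0.685%, while there were 820 sites in all. Of windows with a GC content of up to 45%, 0.0467% held the midpoint of a site. The share was 0.174% from 45% to 50%, 0.567% to 55%, 1.04% to 60%, 1.49% to 65% and 4.27% above 65%. Each step up in GC content brought a higher share, and whether DNase cutting or read recovery themselves vary with GC content was not tested.

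**Figure D3:**
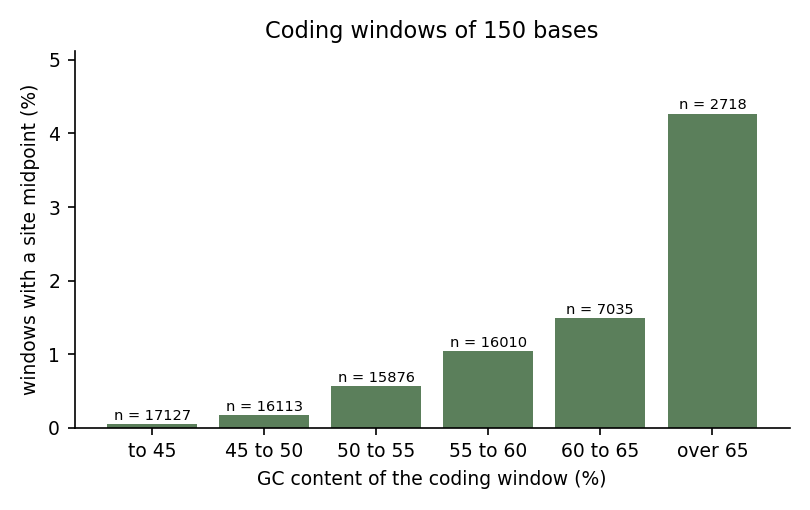
Share of 150-base coding windows over 2 kb from every start that hold the midpoint of a site, by GC content of the window, with the number of windows above each bar. The share goes from 0.0467% in windows of up to 45% GC to 4.27% in windows over 65%.

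Last coding exons were richer in sites than inner ones. They held 255 and 256 member peaks, 32.6% of members in both libraries, on 19.1% of the eligible coding bases. With all peaks of a single library, shared or not, the share was 32.4% in replicate 1 and 31.2% in replicate 2. Peaks were classed by the longest basic transcript coding at the midpoint, while bases were counted on a single representative transcript per gene. Exons of other transcripts, such as the last exon hit in Rftn2, therefore added peaks but no bases. The effect of this on the densities given here and below was not tested. Inner exons held 461 and 462, or 58.9%, on 73.9% of the bases. Per Mb this was 64.2 and 64.4 in last against 30 and 30.1 in inner exons. First coding exons had 48.5 and 53.1 per Mb from 32 and 35 peaks. Genes with a single coding exon had 44.6 and 40.7 per Mb, from 35 and 32 peaks.

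Within each class of exon length, last exons held more peaks per Mb than inner ones. In replicate 1 inner exons of up to 200 bases had 26.1 peaks per Mb, those of 200 to 500 bases 39.7 and longer ones 35.7. The same length classes of last exons had 57.4, 92.4 and 56.4, and replicate 2 gave 58.5, 96.0 and 55. The middle length class was the densest for both kinds of exon. The difference was also present farther from starts, where, over 5 kb from each of them, last exons had 58.3 and 59.4 per Mb and inner exons 28.9 and 29.1.

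Last exons were also richer in GC. Their peaks had a median GC content of 61.8% and 61.6%, against 57% and 56.7% in inner exons, and a median CpG ratio of 0.531 and 0.521 against 0.372 and 0.370. The part of base composition in the density of last exons was not tested. Their signals were close to those of inner exons, with medians of 1.38 and 0.922 against 1.32 and 0.849. The percentile was higher by 2.09 and 3.72 points, a mean of 2.91 ± 1.15, and over 5 kb from a start this difference was -0.0221 points. It was larger with the permissive peak list, at 6.35 points, with a reciprocal overlap of 50%, at 5.59, and in all peaks of replicate 2 alone, at 4.96.

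Along the coding sequence the sites were densest toward the 3′ end. The median position was 63.3% of the way from start to stop codon. In steps of 25% of the coding sequence, from its beginning to its end, there were 139, 170, 207 and 304 sites. The limit of 2 kb from every start removes more of the beginning than of the end. Per Mb of eligible coding bases the steps had 34.2, 32.4, 37.5 and 51.2 sites, so the last step was the densest and the first 3 differed little.

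Almost every second member peak reached beyond its exon. Splice sites were crossed by 49.2% and 50.6% of member peaks, of which 160 and 161 crossed only the acceptor at the exon's 5′ end, 128 and 127 only the donor, and 97 and 109 both. Wholly within coding sequence lay 44.2% and 42.2%. The exons that held a peak had a median length of 232 and 231 bases, while the median coding base lay in an exon of 184 bases. Of the footprints, 91 of 2143 and 99 of 2395 spanned an exon edge, which is 4.25% and 4.13%.

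Within the peaks that crossed a splice site, footprints covered 23.5% and 24.6% of the coding bases and 16.4% and 17.4% of the bases outside. The midpoint of a member lies in the coding part by the rule, so the coding part is also the centre of the peak.

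The sites lay a median of 6818 and 6980 bases from the nearest start, with 38.1% and 37.7% within 5 kb. RefSeq, a second annotation, placed a start within 2 kb of 49 sites, or 5.98%, and of 5.29% of intron sites. The members nearest the limit of 2 kb are given with the peaks just beyond it. Just inside were Acox3 with its midpoint at 2002 bases, Ptma at 2004 and Stbd1 at 2009. Their signals were 2.06, 1.04 and 1.01 in replicate 1 and 0.702, 0.610 and 0.780 in replicate 2. Just outside were Mex3b at 1994, Lbx1 at 1991 and the replicate 2 peak of the same Acox3 site at 1988. The signals of Mex3b were 0.619 and 0.395 and those of Lbx1 1.19 and 0.757.

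Nearly all members held footprints, as called by the authors at their threshold of 0.01. At least 1 footprint was present in 95.0% and 95.8% of member peaks, against 97.6% and 96.9% of intron peaks, with a mean of 2.74 and 3.05 per member peak. Footprints covered 19.8% and 20.7% of member bases and 21.1% and 22.7% of intron peak bases, a difference of -1.61 ± 0.462 points that had the same sign in both libraries. It was -3.05 points in replicate 1 and -2.17 in replicate 2 when peaks of that library alone were counted. It shrank to -0.801 when peaks below the median signal were left out, and was -0.968 with the basic GENCODE transcripts, -1.01 with RefSeq and -0.995 over 5 kb from every start. With a start limit of 1 kb it was -2.53. The median footprint was 11 bases long in both libraries, and the longest were 48 and 52.

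The share of bases in footprints followed the strength of the peak. In steps of 25 percentiles of the library's signal, from the lowest to the highest, footprints covered 12.6%, 15.5%, 20.3% and 29.6% of member bases in replicate 1, and 12%, 14.7%, 21.3% and 37.2% in replicate 2. Intron peaks had 16.2%, 18%, 21.6% and 29.4% and then 13.3%, 16.0%, 23.0% and 38.7%. The members were below the intron peaks in each step of both libraries except the highest of replicate 1. More cuts are counted in stronger peaks, and the part of depth in the calling of footprints was not tested.

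**Figure D4:**
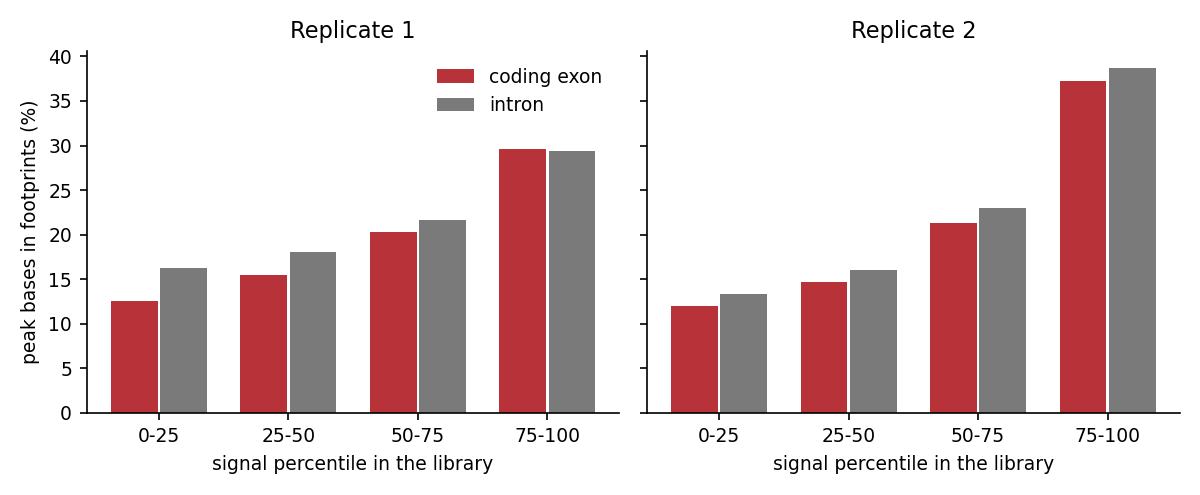
Share of peak bases in footprints for coding-exon members and intron peaks, in steps of 25 percentiles of the library's signal, for each library. Member bars go from 12.6% to 29.6% in replicate 1 and from 12% to 37.2% in replicate 2.

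Footprints recurred in part at the same bases. Of the footprint bases that replicate 1 gave to the 820 sites, 60.7% were also in footprints of replicate 2, and 55% the other way. Intron sites had 64.7% and 56.5%. Both libraries had a footprint in 781 sites, or 95.2%, and in 96.7% of intron sites. The sites with most footprint bases were in Gdf15, Nrg2, Gcgr, Sema6c and Ebf3. In Gdf15, a secreted stress factor, footprints took 99 and 187 of 440 bases in the last exon. In Gcgr, the glucagon receptor gene, they took 130 and 125 of 360.

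No footprint in either library was found in 9 of the 820 sites, beside 37 of 17534 intron sites. The 9 sites are a count too small to name by the rule and were looked up after its value was seen. These were 4 sites in Irs1 and 1 each in Ptma, Fzd8, Shf, Ntng1 and Ndn. Irs1, the insulin receptor substrate, has its coding sequence in a single exon of 3693 bases. Its sites ran nearly end to end, 1 of them past the edge of the coding sequence, were 1002, 620, 680 and 302 bases wide, and had signals of 0.719 to 1.18 and 0.413 to 0.583. The Irs1 promoter was stronger, at 6.74 and 2.58. The pattern in Irs1 was thus one of broad and weak cutting in which no footprint was called. Whether weak signal kept footprints from being called there was not tested. Members in single coding exons as a class had footprints over 10.9% and 11.0% of their bases, and only 80.0% and 75% had any.

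The widest sites, in Rara with 1340 bases, Tmem200c with 1160, Sema6c with 1129, Lor with 1011 and Irs1 with 1002, were joined from several peaks. Among all sites 33 held more than 1 peak of a library. Rara encodes a retinoic acid receptor, and its site had signals of 1.77 and 0.495. Lor encodes loricrin, a protein of the skin barrier, and its single coding exon had 2.81 and 0.954 although the gene is a marker of keratinocytes and not of muscle.

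The bases inside the sites were searched for 16 recognition sequences, on both strands and in windows of 150 bases around each midpoint. Windows around coding-exon sites could reach past the exon and had a median GC content of 58.7%, against 51.3% in all coding windows. The shares in all coding windows are therefore not matched to the sites in composition. The CTCF core was present in 10.4% of coding-exon sites, in 13.3% of intron sites, in 15.6% of intergenic sites, and in 1.12% of all coding windows. It fell in footprints far more than other bases did. Of its 87 matches, 89.7% and 92.0% overlapped a footprint, while 37.9% and 41.0% of all positions of that length did. The core was on the coding strand of the host gene in 39 sites and on the other strand in 47, with 1 site counted in both. Neither orientation predominated.

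The 85 sites with a CTCF core were placed differently in the libraries. Their median percentile was 56.5 in replicate 1 and 72.9 in replicate 2, and the sites without the core had 51.6 and 48.8. The median signals with and without the core were 1.47 and 1.32 in replicate 1, and 1.57 and 0.817 in replicate 2. Sites with the core had more of their bases in footprints, 22.4% and 30%, than those without, 16.5% and 17.7%. The higher rank of the core was thus seen in both libraries and was larger in replicate 2, and its sites had a median width of 183 bases against 200. The shorter form AGNNGGCG, which overlaps the core, was found in 23.5% of coding-exon sites, 11.9% of intron sites and 5.32% of all coding windows, and 67.9% and 76.3% of its matches touched a footprint. It contains a CpG, which the coding-exon sites hold more often.

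The E-box CAGCTG was the most common of the sequences searched. It was present in 32.6% of coding-exon sites, 25.3% of intron sites, 23.5% of intergenic sites and 13.0% of all coding windows. Its matches overlapped footprints in 35.3% and 37.8% of cases, near the 29.7% and 32.3% of all positions of 6 bases. Sites with it had a median percentile of 59.4 in replicate 1 and 49.7 in replicate 2, and sites without it 49.6 and 51.2, so that the difference changed sign between libraries.

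The NFI arm TTGGCA was found in 17.2% of coding-exon sites, 19.9% of intron sites and 10.7% of all coding windows. Of its matches, 72.4% and 63.8% overlapped a footprint, more than for the E-box. The Sp/KLF box GGGCGG, common in CpG islands, was present in 11.8% of coding-exon sites, 7.24% of intron sites and 4.03% of all coding windows, and 48.2% and 57.1% of matches overlapped a footprint. Sites with the box were stronger in both libraries, at percentiles of 64.5 and 55.9 against 51.4 and 50.5.

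Some of the sequences searched were less common than in introns. AP-1 sites, TGANTCA, were present in 4.51% of coding-exon sites and 8.80% of intron sites, and in 3.27% of all coding windows. The MEF2 sequence, CTA, any 4 bases and TAG, bound by a family of muscle regulators, was in 0.732% of the coding-exon sites, 2.34% of intron sites and 0.964% of all coding windows. The TEAD sequence GGAATG was in 6.34%, 10.8% and 7.70%. A match is a string of letters and says nothing on which protein was present.

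**Figure D5:**
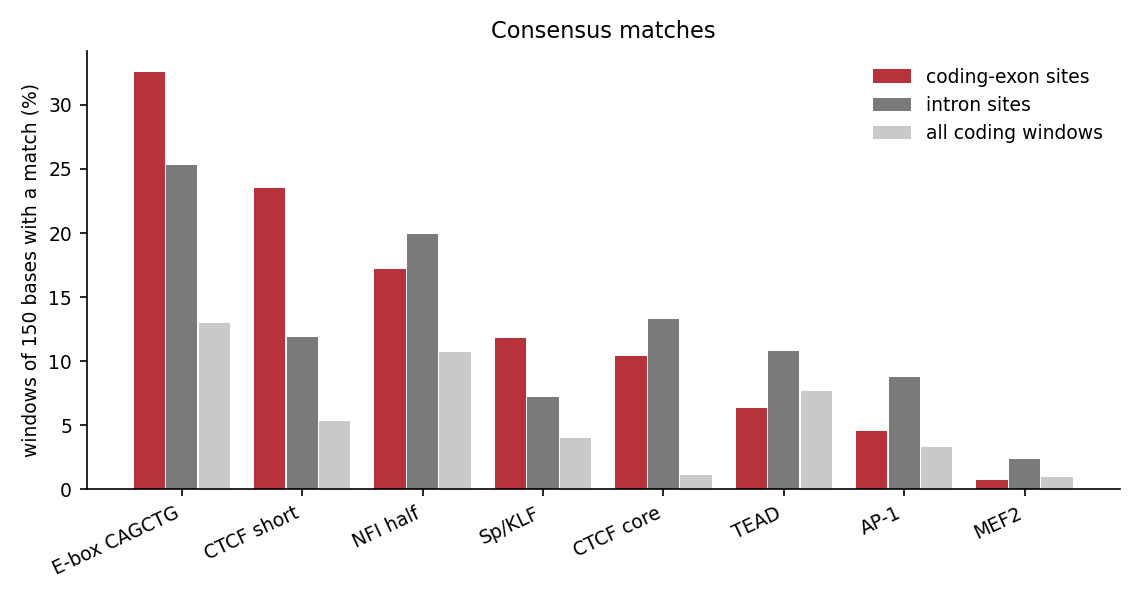
Share of 150-base windows with a match on either strand, for coding-exon sites, intron sites and all coding windows. The E-box CAGCTG is at 32.6%, 25.3% and 13.0%, and the CTCF core is at 10.4%, 13.3% and 1.12%.

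The 752 host genes were mostly single hits. There were 701 genes with 1 site, 41 with 2 and 10 with 3 or more. Of 16719 protein-coding genes with coding bases over 2 kb from every start, 751 hosted a site, or 4.49%. Host genes had more such bases, with a median of 1.58 kb against 0.866 kb. Of the 25% of genes with most eligible coding bases 9.21% were hosts, and of the 25% with fewest 1.22%.

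The promoters of host genes were more often open, except among genes with fewest eligible coding bases. A promoter peak in both libraries was found for 78.5% of host genes, against 70.0% of eligible genes. In the longest of these groups the shares were 83.4% and 76.2%, in the next 75.3% and 69.6%, then 75.2% and 68.1%, and in the shortest 62.7% and 66.2%. A shared intron site was present in 53.1% of host genes and 32.4% of eligible genes, and host genes were also longer, with a median of 42.5 kb against 26.1 kb. Sites in genes with and without an open promoter had close medians. The 174 sites in genes without had median signals of 1.36 and 0.865, and the other 646 had 1.34 and 0.851. Of those 174 sites, 43.1% were in last exons, against 28.6% of the 646.

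The genes with 3 or more sites were of several kinds. Syne1, which encodes nesprin-1, a spectrin-repeat protein that links the nucleus to actin and is abundant at muscle nuclei, had 7 sites, all in inner exons. Their signals ran from 0.541 to 4.36 in replicate 1 and from 0.349 to 2.60 in replicate 2. Its relative Syne2 and the linker Dst had 3 each. Cand2, a muscle-enriched regulator of ubiquitin ligases, had 4 sites within 3.64 kb of eligible coding sequence, and 2 of them lay in a single exon of 1503 bases. Their signals in replicate 1 were 1.30, 2.16, 1.03 and 1.85, and in replicate 2 they were 0.491, 0.963, 0.743 and 1.82. Irs1 and Plec had 4 each as described, and Kif13a, Disp2 and Ccdc162 had 3 each. Sites of the same gene share its length and chromatin and are not independent of each other.

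Gene lists for muscle and for other cells are given beside the 4.49% of all eligible genes and their 39.4 sites per Mb of eligible coding sequence. Of 48 sarcomere genes 9 were hosts, or 18.8%, with 42.7 sites per Mb; counted per base they stood close to all genes. The hosts included Synpo2l, Nrap, Cmya5, Mylk2, Acta1, Neb, Xirp2 and Myot. Mylk2, the myosin light chain kinase of skeletal muscle, had signals of 3.84 and 1.06. Neb, the thin filament ruler nebulin, had only 0.881 and 0.633. Acta1, skeletal alpha-actin, had 1.67 and 0.794 at a site of 700 bases that covered its inner exon, 2520 bases from the start.

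Of 24 genes of the muscle membrane and dystrophin complex, 6 were hosts, or 25%, with 91.8 sites per Mb. Plec gave 4 of the 9 sites, all weak. Dysf, the membrane repair protein dysferlin, had the strongest, with 4.16 and 2.07 in coding exon 34 of 56. Sntb1 followed with 1.23 and 0.509 and Utrn, the dystrophin relative utrophin, with 0.836 and 0.638, while Ank3 and Lama2 were the others. Of 21 genes of calcium handling, Atp2a1 and Bin1 were hosts, or 9.52%, with 49.8 sites per Mb. Atp2a1, the calcium pump of fast fibres, had 3.65 in replicate 1 and 0.963 in replicate 2. Bin1, a protein of the transverse tubules, had 2 sites with 2.18 and 1.53 and with 2.08 and 0.950.

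Among 29 muscle regulators the hosts were Sox6, Mef2d and Mef2a, or 10.3%, with 86.1 sites per Mb. Sox6, which represses slow fibre genes, had signals of 3.22 and 1.00 in its last exon. Mef2d had 1.62 and 0.973 and Mef2a 0.725 and 0.821. Among 25 genes of energy metabolism 2 were hosts, of which Phkg1, a subunit of phosphorylase kinase, had 0.914 and 0.991. Of 23 genes of connective tissue and endothelium 5 were hosts, or 21.7%, with 65.8 sites per Mb. Notch3, a receptor of vascular smooth muscle and pericytes, was the strongest, with 4.30 and 4.85 in an inner exon and 4.02 and 1.85 in its last. Col6a3, a collagen of the muscle matrix, had 4.40 and 1.54 and, 100 bases away in the same exon, 3.10 and 0.968.

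Of 16 genes of neurons and Schwann cells only Bsn was a host, or 6.25%, with signals of 3.23 and 1.13, a share near that of all eligible genes. That list had 22.7 sites per Mb. None of 14 liver and germ cell genes was a host, but with 32.7 kb of eligible coding sequence this list could show few sites at the density of all genes. Zinc finger genes with a Zfp symbol were hosts in 11 of 368 cases, or 2.99%, with 21.3 sites per Mb. Of their 12 sites 9 lay in last coding exons, with Zfp771, Zfp503 and Zfp385a in front. Their signals were 9.15, 5.55 and 3.10 in replicate 1 and 5.11, 2.95 and 3.17 in replicate 2. Some other families had more hosts than the 4.49% of all genes, each from few hosts. Laminins, proteins of the basement membrane, had 4 hosts among 11 genes, or 36.4%, at 69.7 sites per Mb. Plexins and semaphorins had 14.3% (4 of 28 genes, 68.6 sites per Mb) and kinesins 12.8% (5 of 39, 78.5 per Mb). Forkhead and Sox genes had 10.8% (4 of 37, 107 per Mb) and potassium channel genes 7.59% (6 of 79, 64.1 per Mb). Collagens had 6.67% (3 of 45) but 25.5 per Mb, below the 39.4 of all genes. Solute carriers had 3.59% and 32.4 per Mb. None of 68 protocadherin and none of 98 olfactory receptor genes held a site, on 51.4 and 80.4 kb of eligible coding sequence, where few sites would lie at the density of all genes.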

How the data were processed

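Peak lists, footprint lists and per-base FDR tracks of 2 DNase-seq libraries were used as deposited, on mm10. Column 7 of the peak lists is the authors' signal of DNase cutting. With its scaling not given in the sources used here, signals were ranked as percentiles within a library. Peaks were called from each library alone, per the deposited descriptions. The footprint value is a p-value or FDR threshold set by the authors, constant at 0.01. The deposited FDR tracks list bases under 0.05, and every member held bases at 0.001 or less. Programs and versions: not given in the sources used here. Read depth is unknown, so there are no counting intervals. The replicate number comes from the labels, and replicate 1 was sequenced on 2 instrument models.

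Midpoints were classed as coding exon, other exon, intron or intergenic by all GENCODE M21 transcripts on 21 chromosomes. Exon place was taken from the basic transcript with the longest coding sequence among those coding at the midpoint. Eligible bases per exon place were counted on a single representative transcript per gene. A merged site joins overlapping peaks of both libraries, with the strongest peak as its signal. Of the 820 sites, 725 had a member peak in both libraries, 47 in replicate 1 only and 48 in replicate 2 only. Python 3.11.15, numpy 2.4.6, pandas 2.3.3, scipy 1.17.1, pysam 0.24.0 and matplotlib 3.10.9 were used. The classification of peaks was tested on simulated data.

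The members, gene lists and sequences searched were chosen with earlier results of these data known. Named are the 10 strongest sites, the 5 with most footprint bases, the 5 widest, the 10 genes with most sites, up to 3 hosts per list, the top 3 Zfp genes and the 3 sites on either side of 2 kb. Further list hosts were named to complete a count. The alternatives tried are given with their effect in the closing section. Some genes that this rule selects are not reported here.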

Additional observations from a re-analysis of the deposited data

How the results depend on the processing

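Of 93 alternative values, 29 moved by no more than the spread between libraries or within 1.5 times for the count, 60 moved by more, and 4 changed sign. Spreads between the libraries were often very small, in part because the rule keeps only shared peaks, so a move can be slight. The basic GENCODE set, and the shorter CTCF form, were added after seeing the data. The number of sites, 820, was 1132 with the basic GENCODE set and 1164 with RefSeq, 515 with a limit of 5 kb, 342 with peaks at or above the median signal and 1504 with the permissive list, and 1056 to 1229 with 1 library left out. The density relative to introns was 2.00 with the basic GENCODE set, 2.06 with RefSeq, 1.89 with at least 50% coding bases per peak, 2.17 with a limit of 1 kb, 1.94 with a limit of 5 kb, 2.14 with peaks at or above the median signal, 2.03 with the permissive list and 1.96 with a reciprocal overlap of 50%, and 1.85 to 2.37 with 1 library left out. The share of distal peaks was 2.74 with the basic GENCODE set, 2.89 with RefSeq, 2.05 with at least 50% coding bases per peak, 2.64 with a limit of 1 kb, 1.67 with a limit of 5 kb, 2.29 with peaks at or above the median signal, 2.26 with the permissive list and 2.12 with a reciprocal overlap of 50% (left out: 2.01 to 2.61). The GC difference from introns was 5.37 with the basic GENCODE set, 5.30 with RefSeq, 5.62 with at least 50% coding bases per peak, 6.04 with a limit of 1 kb, 4.83 with a limit of 5 kb, 5.55 with peaks at or above the median signal, 5.44 with the permissive list and 5.11 with a reciprocal overlap of 50% (left out: 5.48 to 5.83). The footprint difference was -0.968 with the basic GENCODE set, -1.01 with RefSeq, -2.53 with a limit of 1 kb, -0.995 with a limit of 5 kb, -0.801 with peaks at or above the median signal and -1.15 with a reciprocal overlap of 50% (left out: -3.05 to -2.17). The last-exon share was 28.6 with the basic GENCODE set, 28.7 with RefSeq, 32.7 with at least 50% coding bases per peak, 30.8 with a limit of 1 kb, 31.7 with a limit of 5 kb, 35.6 with peaks at or above the median signal, 29.7 with the permissive list, 31.3 with a reciprocal overlap of 50% and 34.8 with the last exon of the transcript (left out: 31.2 to 32.4). The signal of last minus inner exons was -0.0221 with a limit of 5 kb, 6.35 with the permissive list and 5.59 with a reciprocal overlap of 50% (left out: 2.95 to 4.96). The signal difference from introns changed sign, to -1.49 with the permissive list and -0.324 with replicate 1 and -5.05 with replicate 2 left out. The difference in median width, 0, was 7.25 with a limit of 1 kb, 10 with peaks at or above the median signal, 5.25 with the permissive list and 2.25 with a reciprocal overlap of 50% (left out: 0 to 17.0). The causes were not tested. No paired analysis was possible because the labels give 1 group and no result comes from a fitted test; differences between classes were taken within each library. Depth behind each peak is unknown, and no p is given for a difference between classes, since an exact sign flip over 2 libraries cannot go below 0.5.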
